A study of Mus musculus with 4 samples.

Results

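Type 2 conventional dendritic cells (cDC2) were taken from the leukocytes of B16-F10 melanomas grown in wild-type (WT) and Ndufa4-deficient (KO) mice. A tumour barcode was counted as a cDC2 when it had at least 500 unique molecular identifiers (UMIs), at least 200 genes and at most 10% mitochondrial UMIs, and met a rule on raw UMIs of 12 genes. The rule asked for at least 1 UMI of Flt3 and Cd209a together and at least 10 of H2-Ab1. It allowed no UMI of Xcr1, Clec9a, Ccr7, Cd79a, Cd3d, Cd3e or Cd3g and at most 1 each of Siglech and C1qa. The rule found 162 cells, 77 in the WT and 85 in the KO library, among 8675 tumour cells and 23157 cells of the series that passed the same limits on UMIs, genes and mitochondrial share.

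The mice were male, 8 weeks old and of C57BL/6 background, and organs were taken on day 18 after B16-F10 cells, a melanoma line of the same strain, had been placed under the skin. CD45+ cells, which are leukocytes, were sorted from the tumours, and CD45+ CD11b+ cells from the spleens. The genotype labels read Wild-type and Ndufa4KO and do not say in which cells the gene was lost. Each of the 4 libraries pooled cells of 3 mice, or up to a slightly larger number per the protocol, so there was 1 library per group. No difference between genotypes could be tested, no p-value is given, and genotype cannot be told apart from the handling of its library. Every interval below covers counting error alone and says nothing of the variation from mouse to mouse or cell to cell.

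Conventional dendritic cells take up antigen in tissues and present it to T cells. The cDC2 branch, marked in mice by Sirpa, Cd209a and Clec10a, presents mainly on MHC class II to CD4+ T cells, whereas the cDC1 branch is specialised for cross-presentation to CD8+ T cells. Interferons act on both branches through interferon regulatory factors among others, and raise antigen processing genes, guanylate-binding proteins and the chemokines that attract T cells through CXCR3.

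Several cDC2 markers that the rule did not read were present, with shares of cells set beside T cells alone. Clec10a, a galactose-binding lectin of cDC2, had 286 CPM in WT and 472 CPM in KO cDC2, where CPM is a gene's UMIs per 1000000 UMIs of the class. A Clec10a UMI was found in 70.1% of WT and 72.9% of KO cDC2, at median depths of 20195 and 16208 UMIs. In tumour T cells, which lack the gene, the share was 1.70% in WT and 1.81% in KO, at median depths of 9027 and 10266 UMIs. Zbtb46, a transcription factor of conventional dendritic cells, was found in 57.1% and 42.4% of cDC2 and in 5.24% and 4.45% of T cells. Kmo, an enzyme of tryptophan breakdown that dendritic cells express, was found in 80.5% and 74.1% of cDC2 and in 0.786% and 0.978% of T cells. The cDC2 markers Cd300a, Sirpa and Itgax were likewise present, at 338, 169 and 174 CPM in WT and 389, 130 and 127 CPM in KO, while Clec4a4 was nearly missing, with 4 UMIs in WT and 0 in KO.

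Markers of other cells were low for some genes and not for others. The cDC1 gene Cadm1 had 1.86 CPM in WT and 6.00 CPM in KO cells, while Fscn1, of migrating dendritic cells, had 3.71 and 0.666 CPM. Other cDC1 markers were present. With the top cell of each library left out, Naaa had 369 UMIs in WT and 485 in KO, and Wdfy4 223 and 157. The cDC1 markers outside the rule summed to 852, 770 and 510 CPM in WT cells admitted by Flt3 alone, Cd209a alone or both. In KO the sums were 903, 766 and 734 CPM. Mertk, a macrophage receptor, had 1 UMI in WT and 0 in KO, and the complement gene C1qb had 34.0 and 16.7 CPM. Monocyte genes were present: Ccr2 had 927 and 749 CPM, Csf1r 161 and 160 CPM, and Ly6c2 52.0 and 195 CPM. Summed marker lists gave 690 CPM in WT and 1039 CPM in KO for 9 macrophage genes outside the rule, and 1827 and 2105 CPM for 11 monocyte genes. The 7 neutrophil markers summed to 69.3 and 29.3 CPM, the 5 T cell markers outside the rule to 2.47 and 30.0 CPM, and the 6 melanoma markers to 27.8 and 16.7 CPM, while no UMI of the 4 mast cell and basophil markers was found. By Flt3 alone, Cd209a alone or both, natural killer cell markers summed to 192, 204 and 273 CPM in WT. In KO they summed to 363, 320 and 399 CPM. Plasmacytoid dendritic cell markers outside the rule summed to 346, 322 and 529 CPM in WT and 600, 412 and 666 CPM in KO. The part of these cells or of their free RNA in the results below was not tested, apart from the values given beside them.

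**Figure D1:**
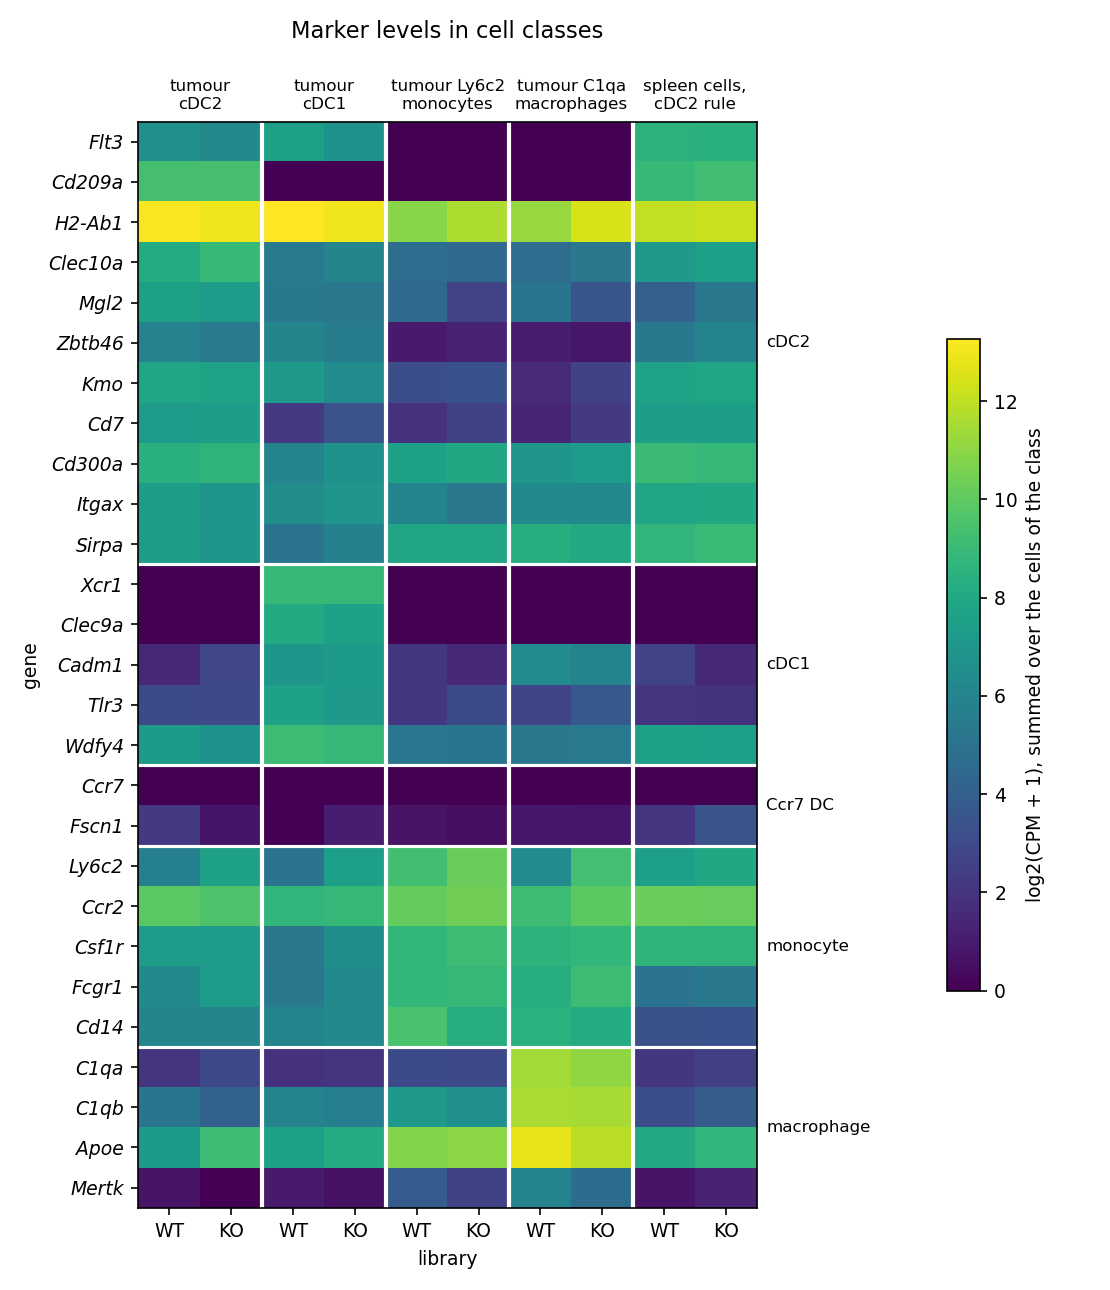
Level of marker genes, as log2(CPM + 1) of the UMIs summed over the cells of a class, in the WT and KO library of 5 cell classes. Rows are grouped by the cell type a gene marks, and Flt3, Cd209a, H2-Ab1, Xcr1, Clec9a, Ccr7 and C1qa were used to choose cells. Clec10a, Kmo, Cd7 and Zbtb46 were present in the tumour cDC2 of both libraries, whereas Cadm1, Tlr3 and Mertk were at most 6.80 CPM there. Wdfy4, also in the cDC1 rows, was present in both.

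The cDC2 were a similar small share of the leukocytes in both tumours. They made up 1.92% [1.51, 2.39] of the kept WT cells and 1.83% [1.46, 2.25] of the kept KO cells, with exact 95% binomial intervals in brackets. The difference, KO minus WT, was -0.0903 percentage points [-0.676, 0.481]. With neutrophils left out of the denominator, the shares were 2.38% and 1.86%, and the interval of the difference, -1.2 to 0.120 points, still held 0. Among cDC1, cDC2 and Ccr7-expressing dendritic cells together, cDC2 were 45.6% in WT and 42.9% in KO. In the spleen, sorted through a different gate, the same rule found 364 WT and 191 KO cells, or 4.83% and 2.75% of kept cells.

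The targeted gene followed the labels. Ndufa4 (chromosome 6, 11900292 to 11907497, minus strand, GRCm38), which encodes a subunit of the respiratory chain's cytochrome c oxidase, had 426 UMIs in 72 of 77 WT cDC2 and 1 UMI in all 85 KO cDC2. Its level was 264 CPM in WT and 0.666 CPM in KO. The log2 KO/WT ratio was -8.63 [-13.93, -6.14], where the brackets hold an exact conditional binomial interval at 95%, as for every ratio below. The transcripts of the other 12 measured cytochrome c oxidase subunits were within 1.5-fold of WT, with a median log2 ratio of 0.01. None of the 36 measured subunits of complex I, 10 of complex III, 18 of complex V or 13 genes of mitochondrial DNA was called in either direction, and their medians were 0.09, 0.05, 0.02 and 0.14. AA467197, which encodes a subunit related to Ndufa4 that can take its place in complex IV during inflammation, had 238 CPM in WT and 99.9 CPM in KO, a log2 ratio of -1.25 [-1.53, -0.98]. Of its WT UMIs, 28.3% came from 1 cell, and without the top cell of each library the ratio was -1.02.

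Across the transcriptome, a gene was measured when it had at least 50 UMIs over both libraries, and called when its KO/WT ratio was at least 1.5-fold and the interval excluded equality. Of 6293 measured genes, 413 were called higher in KO cDC2, which is 6.56%, and 357 lower, which is 5.67%. The median log2 ratio over all of them was -0.02. These shares are the background for every count below. The genes of the largest difference, ranked by the interval bound nearest 0, included Tent5c, an RNA-tailing enzyme, with 4 UMIs in WT and 64 in KO, and Ppfia4, a liprin scaffold protein, with 5 UMIs in 5 WT cells and 72 UMIs in 39 KO cells. Their log2 ratios were 4.11 [2.68, 6.03] and 3.96 [2.67, 5.62].

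**Figure D2:**
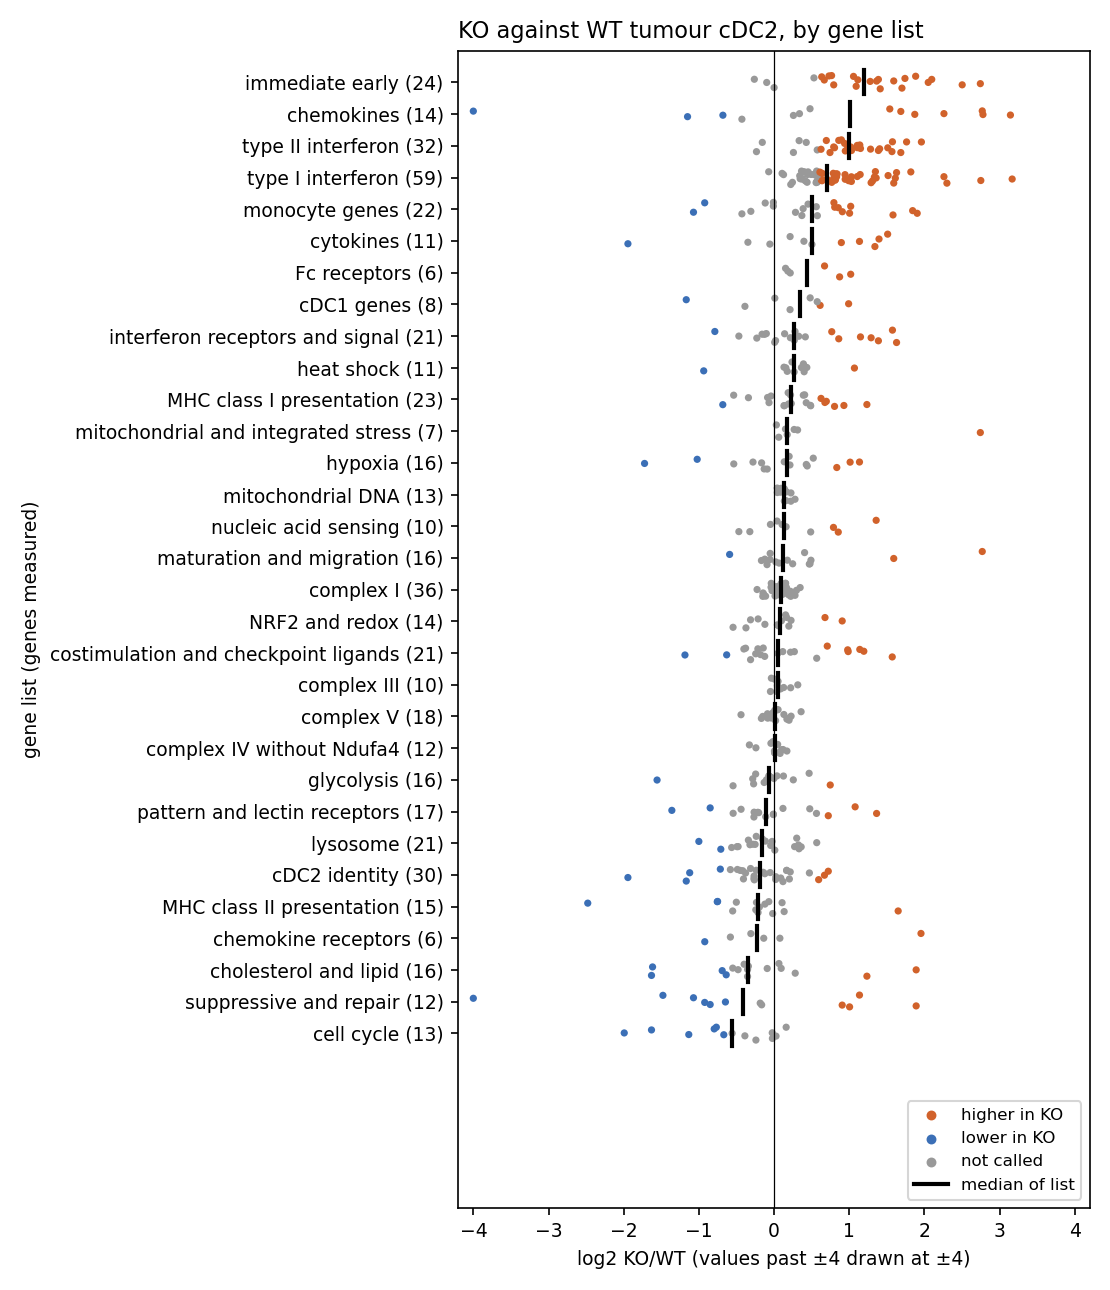
Log2 KO/WT ratio of each measured gene in tumour cDC2, by gene list, with the number of measured genes in brackets on the vertical axis. Orange and blue points are genes called higher or lower in KO, grey points are not called, and black bars are list medians; Arg1 and Cxcl3 lie beyond the axis and are drawn at its edge. The immediate early, chemokine and interferon lists have the highest medians, from 0.70 to 1.2.

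Type I interferon response genes were higher in KO cDC2 and none was called lower. Of 69 genes on the list, 59 were measured, 37 were called higher (against 6.56% of all measured genes), and the median log2 ratio was 0.70. Rsad2, the antiviral protein viperin, had 19.8 CPM in WT and 178 CPM in KO, a log2 ratio of 3.17 [2.64, 3.74]. It was found in 18 WT and 29 KO cells, but 1 KO cell held 58.4% of the KO UMIs, and without the top cell of each library the ratio was 2.20. Ifit3, which restrains viral translation, had 30.3 and 149 CPM, a ratio of 2.30 [1.85, 2.78], in 16 WT and 38 KO cells. Irf7, the interferon regulatory factor that amplifies the response, had 58.8 and 182 CPM, a ratio of 1.63 [1.29, 1.98], in 35 WT and 64 KO cells. Zbp1, a sensor of left-handed nucleic acid, had 104 and 267 CPM, a ratio of 1.36 [1.10, 1.63], and was found in 52 of 77 WT and 76 of 85 KO cells. The genes not called included Ifitm3, Ifi27l2a and Ly6a, named here after their values were seen, at 0.40, 0.37 and 0.49.

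The upstream regions of these genes are shown because interferon-induced factors bind a short element there, the interferon-stimulated response element. Windows of 250 bases before to 50 after each gene start were taken from RefSeq (GRCm38.p6), and the letters GAAA, any 2 bases and GAAA again were searched on both strands. For 4 genes higher in KO, 60 bases upstream of the RefSeq start are printed 5′ to 3′ on the strand of the gene, with the matching letters in capitals. A match to the opposite strand reads TTTC, any 2 bases and TTTC here.
Rsad2, chr12:26456538-26456597, minus strand: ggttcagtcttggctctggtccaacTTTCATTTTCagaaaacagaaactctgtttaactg
Cxcl10, chr5:92349068-92349127, minus strand: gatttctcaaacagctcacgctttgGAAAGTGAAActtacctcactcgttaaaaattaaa
Ifit3, chr19:34583365-34583424, plus strand: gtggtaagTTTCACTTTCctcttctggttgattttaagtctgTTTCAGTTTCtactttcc
Gbp2, chr3:142620579-142620638, plus strand: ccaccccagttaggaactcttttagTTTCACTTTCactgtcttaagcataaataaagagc

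The match began 120 bases before the RefSeq start in Rsad2, 213 in Cxcl10 and 59 in Gbp2, and Ifit3 held 2 matches, at 156 and 122 bases. In the GENCODE M21 annotation Gbp2 begins at 142620602, inside its printed stretch and just before the capitals. Its match is thus upstream of the RefSeq start alone. The letters were present in 3.44% of all 32851 windows. Counted by gene, with any window of a gene sufficing, they were present in 4.63% of the 5076 measured genes that had a window. Among the measured type I interferon genes the share was 60.4%, or 29 of 48 with a window. It was close to that, 61.3% or 19 of 31, among those of them called higher, so it did not follow the call within the list. Among all genes called higher it was 13.5%, or 43 of 318, and the 43 include those 19. The share among genes called lower was 4.26%, or 12 of 282. A match describes these letters in this window and does not show that a factor was bound.

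Genes of the type II interferon response, induced through the interferon gamma receptor, were also higher in KO cDC2. Of 32 measured genes, 26 were called higher and none lower, and the median log2 ratio was 0.99. Gbp2, a guanylate-binding protein of cell-autonomous defence, had 126 CPM in WT and 428 CPM in KO, a ratio of 1.76 [1.53, 2.0], in 29 and 60 cells. Calhm6, a channel protein of activated myeloid cells, had 27.2 and 106 CPM, a ratio of 1.96 [1.47, 2.48]. Irf1, the first-wave regulator of the response, had 109 and 324 CPM, a ratio of 1.58 [1.32, 1.83], in 47 and 69 cells. Genes on the list that were not called included Psmb8, Ciita and Irf8, the first 2 of them named here after their values were seen. Irf8, also a factor of the cDC1 branch, had 121 and 181 CPM, a ratio of 0.57 [0.30, 0.85] that stayed under 1.5-fold.

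The receptors of interferon did not follow their target genes. Ifngr1, the ligand-binding chain of the interferon gamma receptor, was lower in KO, at 255 CPM against 439 CPM in WT, a ratio of -0.79 [-0.97, -0.61]. It was found in nearly all cells of both libraries, 76 of 77 and 74 of 85. Ifnar1, of the type I receptor, had 85.4 and 99.3 CPM, a ratio of 0.22 [-0.13, 0.56]. The feedback inhibitors Usp18 and Socs3 had ratios of 1.29 [0.82, 1.78] and 1.39 [1.10, 1.69]. Over the list of receptors and signalling proteins, 7 of 21 measured genes were called higher and 1, Ifngr1, lower, with a median of 0.27. Among 10 measured genes of the nucleic acid sensing list, 3 were called higher, Zbp1, Ifih1 and Samhd1, and the median was 0.13. Interferon transcripts themselves were at the limit of detection: Ifnb1 had 0 UMIs in WT and 2 in KO, both in 1 cell.

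Of 14 measured chemokines, 7 were called higher in KO cDC2 and 3 lower, with a median of 1.01. Cxcl9, a CXCR3 ligand, had 274 CPM in WT and 882 CPM in KO, a ratio of 1.69 [1.53, 1.85], and was found in 17 of 77 WT cells, 22.1%, and 42 of 85 KO cells, 49.4%. In T cells of the same libraries a Cxcl9 UMI was found in 2.49% and 8.56%. Cxcl10, the related ligand, had 78.6 and 376 CPM, a ratio of 2.26 [1.98, 2.55], in 10 and 26 cells. A single cell held 62.2% of the WT Cxcl10 UMIs and 41.5% of those of Cxcl9, and without the top cell of each library the ratios were 3.17 and 2.09. Ccl4, a chemokine of activated myeloid cells, had 20.4 and 181 CPM, a ratio of 3.14 [2.62, 3.71], in 11 and 28 cells, and 43.2% of its KO UMIs came from 1 cell. Ccl5 had 50 UMIs in WT and 135 in KO, a ratio of 1.54 [1.06, 2.04], in 21 and 41 cells.

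Other chemokines rested on few cells. Ccl7 had 8 UMIs in WT and 51 in KO, but 49 of the latter were in 1 cell, and without the top cells the ratio was -0.89. Ccl17, a CCR4 ligand, had 9 and 57 UMIs in 4 and 6 cells. Cxcl3, a neutrophil attractant, had 124 UMIs in WT, 91.1% of them in 1 cell, and 0 in KO. The T cell attractants Cxcl16 and Ccl22 were not called, at 0.26 [-0.064, 0.58] and 0.48 [-0.20, 1.17]. The Ccl22 value rested on few cells too. Without the top cell of each library it had 6 UMIs in WT and 29 in KO, a ratio of 2.38 [1.09, 3.94] that was called higher. With equal weight for each cell its ratio was -0.20.

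Costimulatory molecules moved unequally. Cd86 had 93.4 CPM in WT and 278 CPM in KO, a ratio of 1.57 [1.30, 1.85], in 55 of 77 and 68 of 85 cells, while Cd80, the other ligand of CD28, had 22.9 and 26.7 CPM, a ratio of 0.22 [-0.46, 0.90]. In T cells of the same libraries Cd86 was found in 17.6% and 19.2%. Cd40, through which CD4+ T cells license dendritic cells, had 34.6 and 68.6 CPM, a ratio of 0.99 [0.50, 1.48]. Cd274, which encodes the checkpoint ligand PD-L1, had 55.1 and 109 CPM, a ratio of 0.98 [0.60, 1.37]. Over 21 measured costimulation and checkpoint genes, 6 were called higher and 2 lower, with a median of 0.05.

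Among 11 measured cytokines, 5 were called higher and 1 lower, with a median of 0.50. Il1b, the inflammasome cytokine, had 262 and 665 CPM, a ratio of 1.34 [1.18, 1.51], in 43 and 63 cells. Il15, which sustains CD8+ T and natural killer cells, was too low to be measured, with 4 UMIs in 3 WT cells and 19 UMIs in 13 KO cells. No UMI of Il12b, a subunit of interleukin 12, was found in either library. Ltb, which encodes lymphotoxin beta and marks cDC2, was lower, with a WT level of 108 CPM against 28.0 CPM in KO, a ratio of -1.94 [-2.47, -1.45], in 41 and 26 cells.

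**Figure D3:**
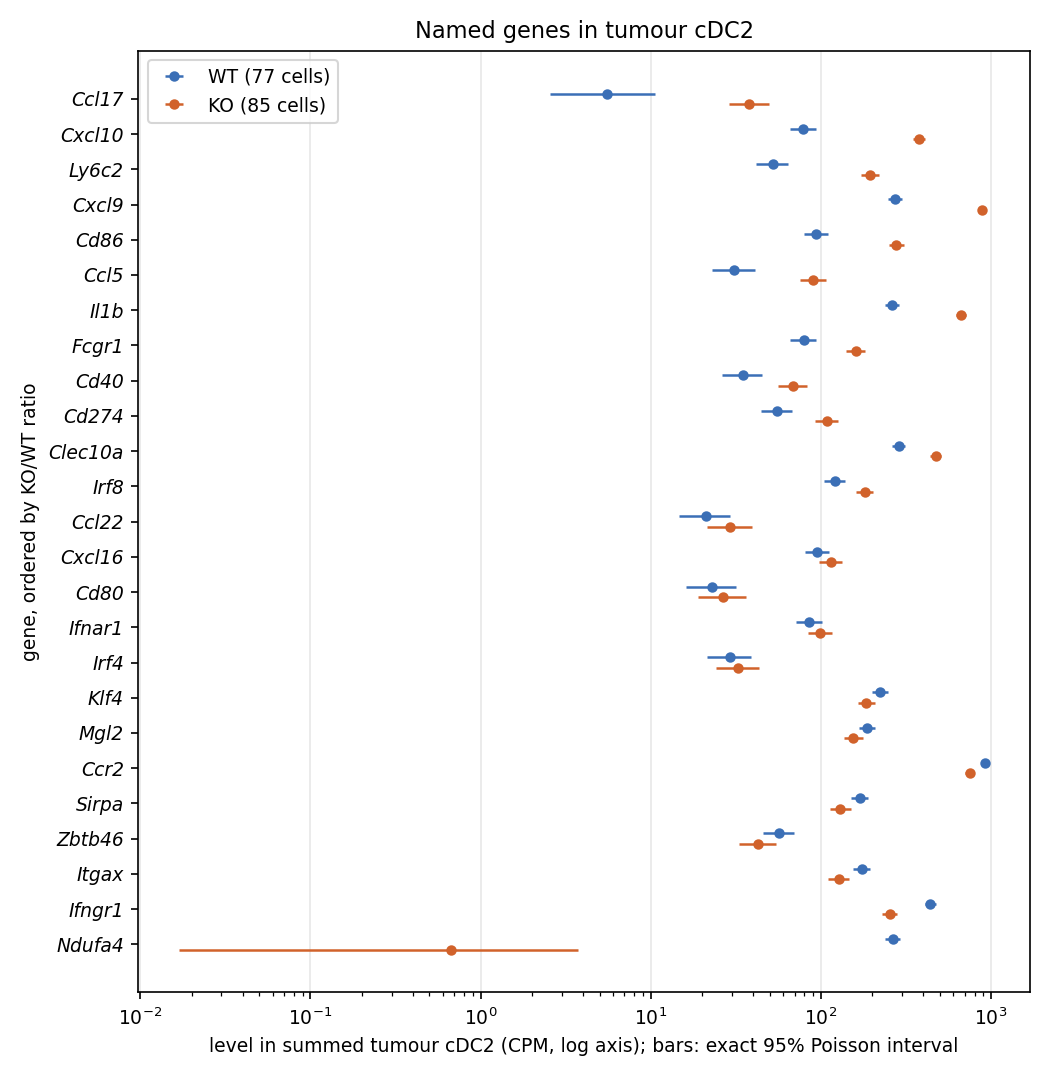
Level in CPM (log axis) of Ndufa4 and of 24 genes chosen for cDC2 function, summed over the 77 WT (blue) and 85 KO (orange) tumour cDC2, ordered by the KO/WT ratio, with exact 95% Poisson intervals as bars. The WT point of Cxcl9 is at 274 CPM and its KO point at 882 CPM, while Cd80, Irf4 and Ifnar1 had overlapping intervals.

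Antigen processing for MHC class I was partly higher, and MHC class II was not. Of 23 measured class I genes, 6 were called higher and 1 lower, and the median ratio on the log2 scale was 0.23. The proteasome activator Psme2 had 291 CPM in WT and 555 CPM in KO, a ratio of 0.93 [0.76, 1.10], and the immunoproteasome subunits Psmb9 and Psmb10 had ratios of 0.63 [0.44, 0.81] and 0.70 [0.46, 0.93]. The calls of Psmb9 and Psmb10 were lost in 5 and 3 of 17 alternative analyses. Tapbpl, a peptide editor, had 26.6 and 62.6 CPM, a ratio of 1.24 [0.70, 1.79]. Of 15 measured class II genes, 1 was called higher and 3 lower, with a median of -0.21. The higher gene was Cd83, which stabilises class II at the cell surface, at 29.7 and 93.3 CPM, a ratio of 1.65 [1.17, 2.16]. The lower genes were H2-DMb2 and H2-Ob, which load or edit class II peptides, with ratios of -0.76 [-0.98, -0.54] and -0.75 [-1.12, -0.39], and the protease cathepsin E, Ctse, at -2.48 [-3.68, -1.45]. The call of H2-Ob was lost in 3 of 17 alternative analyses. H2-Ab1, which the rule used, had 8964 CPM in WT and 7820 CPM in KO.

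A difference found in most cells was that of the immediate early genes, which cells switch on within minutes of a stimulus, including the handling of tissue. Of 24 measured, 20 were called higher in KO cDC2 and none lower, and the list median was 1.2 on the log2 scale. Atf3, a stress-induced repressor, had 61.2 CPM in WT and 410 CPM in KO, a ratio of 2.74 [2.44, 3.07], and was found in 28 of 77 WT and 75 of 85 KO cells. In T cells of the same libraries an Atf3 UMI was found in 5.77% and 7.34%. Fos, a subunit of the AP-1 factor, had 346 and 1481 CPM, a ratio of 2.10 [1.96, 2.23], in 50 and 74 cells. Dusp1, a phosphatase that ends MAP kinase signals, had 122 and 508 CPM, a ratio of 2.05 [1.82, 2.28], in 40 and 78 cells. Jun, named after its value was seen, had a ratio of 0.00, and Klf4, a factor needed for a subset of cDC2, had 222 and 185 CPM, a ratio of -0.26 [-0.49, -0.03].

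Transcripts outside the list moved with these genes: Gadd45b, a stress sensor, had a ratio of 2.44 [1.70, 3.26] and Csrnp1, a nuclear protein, 2.36 [1.76, 3.00]. Of 11 measured heat shock genes, 1 was called higher and 1 lower, with a median of 0.27. How long each tissue was handled was not analysed here, and handling cannot be told apart from genotype.

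Genes of cDC2 identity were on balance close to WT, with lower exceptions. Of 30 measured, 3 were called higher and 4 lower, and the median ratio on the log2 scale was -0.19. The growth and lineage factors Zbtb46 and Irf4 had ratios of -0.42 [-0.90, 0.06] and 0.17 [-0.44, 0.78], and the surface proteins Sirpa and Itgax -0.38 [-0.65, -0.11] and -0.45 [-0.72, -0.18], none of them called. Clec10a was called higher, at 0.72 [0.55, 0.89]. Id2, a repressor that conventional dendritic cells express, had 596 CPM in WT and 265 CPM in KO, a ratio of -1.17 [-1.34, -1.0], in 60 of 77 and 53 of 85 cells. Cd24a, a sialoglycoprotein of dendritic cells that was among the cDC1 markers used here, had 92.8 and 42.6 CPM, a ratio of -1.12 [-1.57, -0.69].

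Further genes were lower in KO cDC2. Clec4n, the fungal receptor dectin-2, had 166 CPM in WT and 64.6 CPM in KO, a ratio of -1.36 [-1.71, -1.02], and the mannose receptor Mrc1 had a ratio of -0.85 [-1.21, -0.50]. The call of Mrc1 was lost in 4 of 17 alternative analyses. Other lectins were called higher, Clec10a as above and Cd209d at 1.36 [0.93, 1.81], and of 17 measured pattern and lectin receptors 3 were called higher and 2 lower. Txnip, an inhibitor of thioredoxin and glucose uptake, had 325 and 112 CPM, a ratio of -1.54 [-1.80, -1.29], in 74 and 50 cells. Ddit4, an inhibitor of the growth regulator mTORC1, had 123 and 37.3 CPM, a ratio of -1.72 [-2.18, -1.29], and Fabp5, a fatty acid carrier, had 272 and 88.6 CPM, a ratio of -1.62 [-1.91, -1.33]. Arg1, the arginine-degrading enzyme of suppressive myeloid cells, had 58 UMIs in 9 WT cells, 53.4% of them in 1 cell, and 1 UMI in KO.

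Over the list of suppressive and repair genes, 6 of 12 measured were called lower and 4 higher. The list median was -0.42, whereas its summed UMIs had a ratio of 0.13 [0.040, 0.21], of opposite sign. S100a8, a neutrophil protein, had 49 UMIs in WT and 3 in KO cDC2, and it was lower in the T cells of the KO tumour too, at 209 and 23.7 CPM. The part of free neutrophil RNA in that difference was not tested.

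Cell cycle genes gave a result that depended in part on few cells. Of 13 measured, 6 were called lower in KO and none higher, with a median of -0.56, and the linker histone Hist1h1b, which is not on that list, had 200 UMIs in WT and 20 in KO. Of the WT UMIs of Hist1h1b, 47.0% came from 1 cell, and of those of Top2a, the S and G2 phase topoisomerase, 61.7%. Without the top cell of each library both were still called lower. Hist1h1b then had 106 and 17 UMIs, a ratio of -2.53 [-3.37, -1.79], and Top2a a ratio of -1.25 [-2.54, -0.081]. Pclaf lost its lower call, at -0.42 [-1.83, 0.92], and Ube2c was called higher, at 1.69 [0.40, 3.17]. A UMI of Mki67 or Top2a was found in 16 of 77 WT cells, 20.8% [12.4, 31.5], and 17 of 85 KO cells, 20% [12.1, 30.1]. With each cell thinned to 2000 UMIs, the numbers were 4 and 6 cells, so a difference in the share of cycling cells was not detectable at this number of cells. When cells were thinned to 3000 UMIs before the rule was applied, which selected partly different cells, the list median was 1.30.

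Part of the monocyte genes were higher in KO cDC2, and a larger share of KO members carried Ly6c2, a monocyte surface antigen that interferon also induces. Of 22 measured monocyte genes, 9 were called higher and 2 lower, and the median ratio on the log2 scale was 0.51. Ly6c2 had 52.0 CPM in WT and 195 CPM in KO, a ratio of 1.90 [1.55, 2.27], and Plac8, a lysosomal protein of blood monocytes, had 1334 and 2505 CPM, a ratio of 0.91 [0.83, 0.99]. The Fc receptor Fcgr1, used to mark inflammatory cDC2 and monocyte-derived cells, had 79.2 and 161 CPM, a ratio of 1.02 [0.70, 1.34], in 36 and 54 cells. Of other monocyte markers, the receptors Ccr2 and Csf1r had ratios of -0.31 [-0.42, -0.20] and -0.01, and Cd14 -0.01, and none of the 3 was called. Further markers of the same list, named after their values were seen, were called higher with the top cell of each library left out. F13a1 was at 1.25 [0.64, 1.89] and Vcan at 2.37 [0.95, 4.12], and Chil3 had 0 UMIs in WT and 21 in KO. C3ar1, at -0.33 [-1.32, 0.64], was not called.

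Members were then divided by Ly6c2, a division chosen after these values were seen. At least 2 Ly6c2 UMIs were carried by 13 WT members, 16.9%, and 30 KO members, 35.3%. Dendritic cell transcripts were found on both sides of the division, at unequal levels. With 0 or 1 Ly6c2 UMI, Zbtb46 had 55.9 CPM in WT and 52.3 CPM in KO, a ratio of -0.095 [-0.64, 0.44]. With 2 or more, it had 61.7 and 24.7 CPM, a ratio of -1.32 [-2.47, -0.21], and Itgax had 134 and 81.8 CPM, a ratio of -0.71 [-1.37, -0.045]. On that side Clec10a had a ratio of 0.19 [-0.15, 0.54] and Kmo -0.46 [-0.99, 0.073]. The summed cDC2 identity list had 0.082 [0.0019, 0.16] and the cDC2 markers outside the rule -0.13 [-0.29, 0.028]. The KO members with more Ly6c2 thus held less of Zbtb46 and Itgax than the WT members beside them, but not of the cDC2 identity list. The part of this in the ratios below was not tested. The other monocyte genes summed to 5334 CPM in WT and 5122 CPM in KO on the side with little Ly6c2, a ratio of -0.059 [-0.11, -0.0061]. With more Ly6c2 they summed to 9697 and 15371 CPM, a ratio of 0.66 [0.60, 0.73]. The division used a monocyte gene already seen to differ, on raw UMIs at median depths of 21170 in WT and 14856.5 in KO there. It therefore cannot place the monocyte difference apart from that choice. Type I interferon genes summed to 10752 CPM in WT and 14945 CPM in KO members with little Ly6c2, a log2 ratio of 0.48 [0.44, 0.51]. Among members with more Ly6c2 they summed to 10632 and 19471 CPM, a ratio of 0.87 [0.81, 0.93]. The type II list had ratios of 0.63 [0.58, 0.68] and 1.62 [1.51, 1.74] on the same sides. Immediate early genes had ratios of 1.13 [1.08, 1.18] and 0.74 [0.66, 0.82]. For these 3 lists a higher level in KO was found on both sides of the division, larger with more Ly6c2 for the interferon lists and larger with little Ly6c2 for the immediate early list. Interferon also induces Ly6c2, so the larger interferon ratios with more Ly6c2 cannot be told apart from the choice of that gene for the division.

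Single genes followed the division unequally. Among members with little Ly6c2, Cxcl9 had 334 CPM in WT and 869 CPM in KO, Cd86 97.4 and 303 CPM, and Atf3 51.3 and 379 CPM. In members with more Ly6c2, no Cxcl9 UMI was found in the 13 WT cells and 477 in the 30 KO cells, 15 of which carried it. Ltb had 128 CPM in WT and 29.7 CPM in KO members with little Ly6c2, a ratio of -2.11 [-2.73, -1.54], and only 4 and 13 UMIs in members with more, a ratio of 0.85 [-0.84, 2.93]. When every member with C1qa was removed as well, which left 59 WT and 48 KO cells, the Cxcl9 ratio was 0.18 and the Cd274 ratio 0.0048, and neither was called; Cd86 kept its call. Under that limit 21 of 55 measured type I genes were called higher, with a median of 0.46, and 11 of 30 type II genes, with a median of 0.54, whereas the median of the immediate early list was 1.29.

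Most KO cells lay above the WT median in the interferon and the immediate early lists. Of these lists, only the immediate early one had most KO cells above the WT 90th percentile. With every cDC2 thinned to 2000 UMIs, so that depth was equal, the median cell held 18 type I interferon UMIs in WT and 31 in KO. The WT cells ranged from 3 to 96 and the KO cells from 8 to 192, so the libraries overlapped, but 70 of 85 KO cells, 82.4% [72.6, 89.8], lay above the WT median. Above the WT 90th percentile lay 17 KO cells, 20%, and 7 WT cells. Type II interferon UMIs had medians of 5 and 9, and 69 KO cells lay above the WT median, of which 26, or 30.6% of all KO cells, also lay above the WT 90th percentile. Monocyte genes had medians of 9 and 12, with 52 KO cells, 61.2%, above the WT median and 18.8% above the WT 90th percentile. Immediate early UMIs had medians of 8 and 21, and 74 KO cells, 87.1% [78.0, 93.4], lay above the WT median. Above the level of 15 that marks the WT 90th percentile lay 58 KO cells, 68.2% [57.2, 77.9], against 6 WT cells. The cDC2 identity list had medians of 12 and 14 UMIs. Before thinning, the medians were 182 and 243 UMIs for type I interferon genes and 81 and 163 for immediate early genes.

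**Figure D4:**
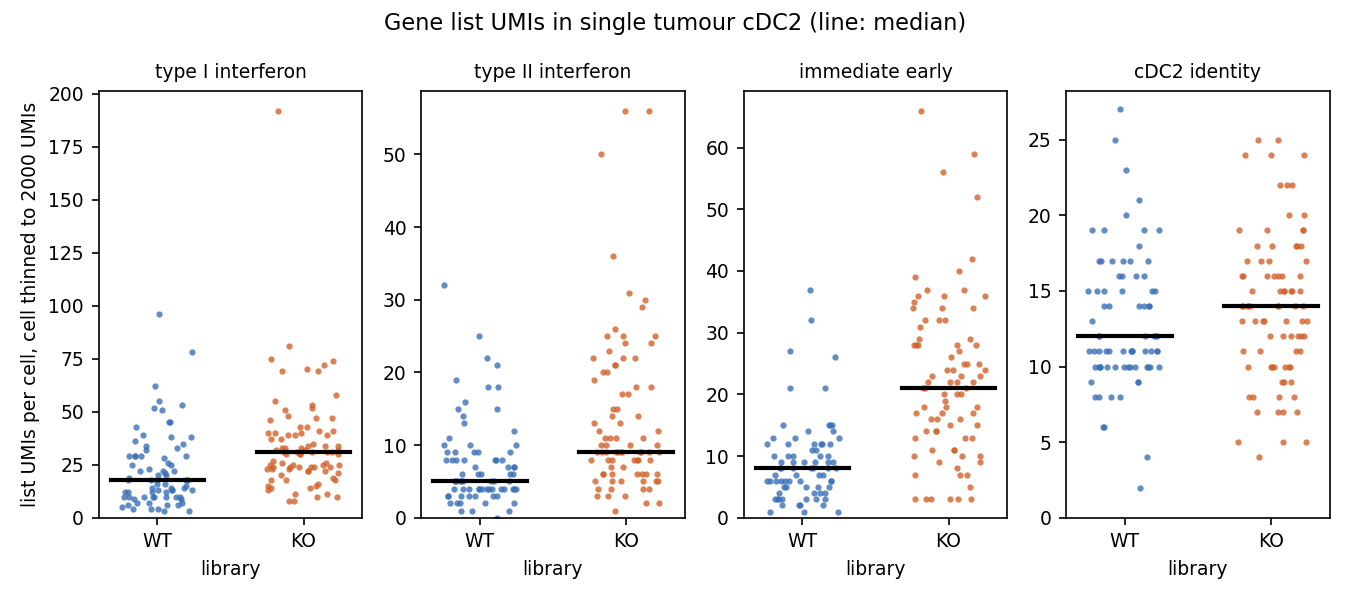
UMIs of 4 gene lists in each of the 77 WT (blue) and 85 KO (orange) tumour cDC2 after each cell was thinned to 2000 UMIs, with the median as a black line. The immediate early medians are 8 in WT and 21 in KO, and the cDC2 identity medians 12 and 14.

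Cells could enter the class through either of 2 genes. Flt3 alone, the cytokine receptor of dendritic cell progenitors, admitted 19 WT and 20 KO cells, Cd209a alone, a lectin of cDC2, admitted 23 and 30, and both genes 35 and 35. These shares were 24.7%, 29.9% and 45.5% in WT and 23.5%, 35.3% and 41.2% in KO. The summed type I list had log2 ratios of 0.84 [0.78, 0.90] in cells with Flt3 alone, 0.39 [0.33, 0.44] with Cd209a alone and 0.70 [0.66, 0.74] with both. Monocyte genes had ratios of 0.83 [0.77, 0.89], 0.12 [0.05, 0.19] and 0.67 [0.60, 0.73] in the same order. Immediate early genes had 1.04 [0.97, 1.12], 1.06 [0.98, 1.13] and 1.13 [1.07, 1.2], with overlapping intervals over the routes. Levels and ratios of other lists varied more. The suppressive and repair list had 2305 CPM in WT cells with Flt3 alone and 504 CPM in those with both genes, and ratios of -0.27 [-0.41, -0.12] and 0.97 [0.78, 1.16]. Hypoxia genes had ratios of -0.76 [-1.0, -0.52] with Flt3 alone and 0.58 [0.41, 0.75] with Cd209a alone, and chemokines 0.37 [0.24, 0.50], 0.44 [0.28, 0.59] and 1.55 [1.41, 1.68] in the order above. Summed monocyte genes had 8255, 6497 and 4690 CPM in WT and 14660, 7073 and 7444 CPM in KO, in that order. The cDC2 markers outside the rule had 1741, 1648 and 2148 CPM in WT and 1356, 1858 and 2189 CPM in KO. Macrophage markers outside the rule had 957, 864 and 409 CPM in WT and 1744, 985 and 699 CPM in KO. Among KO members, those with Flt3 alone thus had the highest monocyte and macrophage levels and the lowest cDC2 marker level.

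Few cells lay close to the limits of the rule on H2-Ab1. No WT and 2 KO members had 10 to 14 H2-Ab1 UMIs, and 2 WT and 5 KO cells with 5 to 9 UMIs met every other limit, while the median member had 180 in WT and 129 in KO. The limit on Flt3 and Cd209a was less sharp: 15 WT and 16 KO members held exactly 1 UMI of the pair, and 292 WT and 257 KO cells with none met every other limit. Zbtb46 had 40 CPM in the WT members just inside and 5.71 CPM in the WT cells outside, and 37.5 and 2.50 CPM in KO. Clec10a had 197 and 54.8 CPM in WT and 202 and 31.7 CPM in KO. Mgl2, another lectin of cDC2, had 263 CPM inside and 111 CPM outside in WT but 18.7 and 26.2 CPM in KO. Zbtb46 and Clec10a were thus higher inside in both libraries, and Mgl2 in WT alone.

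The tumour cDC2 were set beside 5 other cell classes, chosen by fixed UMI limits. These were 45 WT and 80 KO cDC1 with Xcr1 or Clec9a, 47 and 33 dendritic cells with Ccr7, the receptor that guides dendritic cells to lymph nodes, 201 and 302 Ly6c2 monocytes, 447 and 158 C1qa macrophages, and the spleen cells under the cDC2 rule. The tumour classes come from the same pair of libraries, so their values are given side by side. Of measured type I genes, 9 of 54 were called higher in cDC1 (background 11%), 3 of 51 in Ccr7 dendritic cells (11.6%), 42 of 65 in monocytes (6.87%), 52 of 65 in macrophages (7.64%) and 6 of 60 in the spleen cells (3.23%). Called lower were 5 genes in cDC1 (background 2.94%), 27 in Ccr7 dendritic cells (12.7%), none in monocytes (7.02%) or macrophages (9.78%) and 1 in the spleen cells (2.95%). The median log2 ratios were 0.70 in cDC2, 0.08 in cDC1, -0.63 in Ccr7 dendritic cells, 0.68 in monocytes, 0.97 in macrophages and -0.01 in the spleen cells.

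On the summed type I list, cDC2 exceeded cDC1 by 0.47 [0.42, 0.51] log2 units, the spleen cells by 0.67 [0.63, 0.71] and the Ccr7 dendritic cells, in which the list was lower in KO, by 1.12 [1.06, 1.18]. They were below macrophages, by -0.39 [-0.43, -0.36], and did not differ from monocytes beyond counting error, at -0.02 [-0.05, 0.02]. The type II list had medians of 0.99 in cDC2, 0.89 in cDC1, 0.71 in Ccr7 dendritic cells, 1.56 in monocytes, 1.56 in macrophages and 0.10 in the spleen cells. Rsad2 and Ifit3 separated cDC2 from the other dendritic cells: Rsad2 had 50.9 CPM in WT and 26.7 CPM in KO cDC1, and its ratio in cDC2 was larger by 4.10 [3.34, 4.86], while for Ifit3 the difference of ratios was 2.59 [1.87, 3.31]. In the Ccr7 dendritic cells both were called lower in KO, Rsad2 at -2.42 [-3.16, -1.76] and Ifit3 at -2.89 [-3.88, -2.03]. The cDC2 ratio of Rsad2 was 2.20 with the top cell of each library left out, and the difference from cDC1 above includes that cell. Cxcl9 was higher in KO in all 5 tumour classes, at 1.69 in cDC2, 1.98 in cDC1, 1.2 in Ccr7 dendritic cells, 1.57 in monocytes and 2.19 in macrophages.

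Immediate early genes showed a larger difference in cDC2 than in any of the other 5 classes. Their medians were 1.2 in cDC2, 0.85 in cDC1, 0.10 in Ccr7 dendritic cells, 0.36 in monocytes, 0.51 in macrophages and -0.26 in the spleen cells, and on the summed list cDC2 exceeded cDC1, the nearest class, by 0.19 [0.13, 0.25]. For Atf3 the ratio in cDC2 exceeded that in cDC1 by 0.98 [0.52, 1.44] and that in macrophages by 2.40 [2.08, 2.72], and in the Ccr7 dendritic cells Atf3 was lower in KO, at -1.11 [-1.56, -0.68]. MHC class II genes went the other way: medians were -0.21 in cDC2, -0.19 in cDC1 and -0.29 in Ccr7 dendritic cells but 0.63 in monocytes and 0.79 in macrophages, cells in which class II is inducible. Id2 and H2-DMb2 were called lower in tumour cDC2 and in none of the other 5 classes, and Ltb was called lower in cDC2 and, at -0.80 [-1.54, -0.11], in the Ccr7 dendritic cells. For Ltb, Id2 and H2-DMb2 the difference of ratios between cDC2 and the spleen cells was -2.34 [-2.86, -1.82], -1.13 [-1.34, -0.92] and -1.09 [-1.38, -0.80]. Klrd1, a lectin-like receptor found on cDC2, was lower in KO cells among tumour cDC2, at -0.72 [-0.88, -0.57], and among Ccr7 dendritic cells, at -1.62 [-2.07, -1.19], and was 0.09 [-0.05, 0.24] in the spleen cells.

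**Figure D5:**
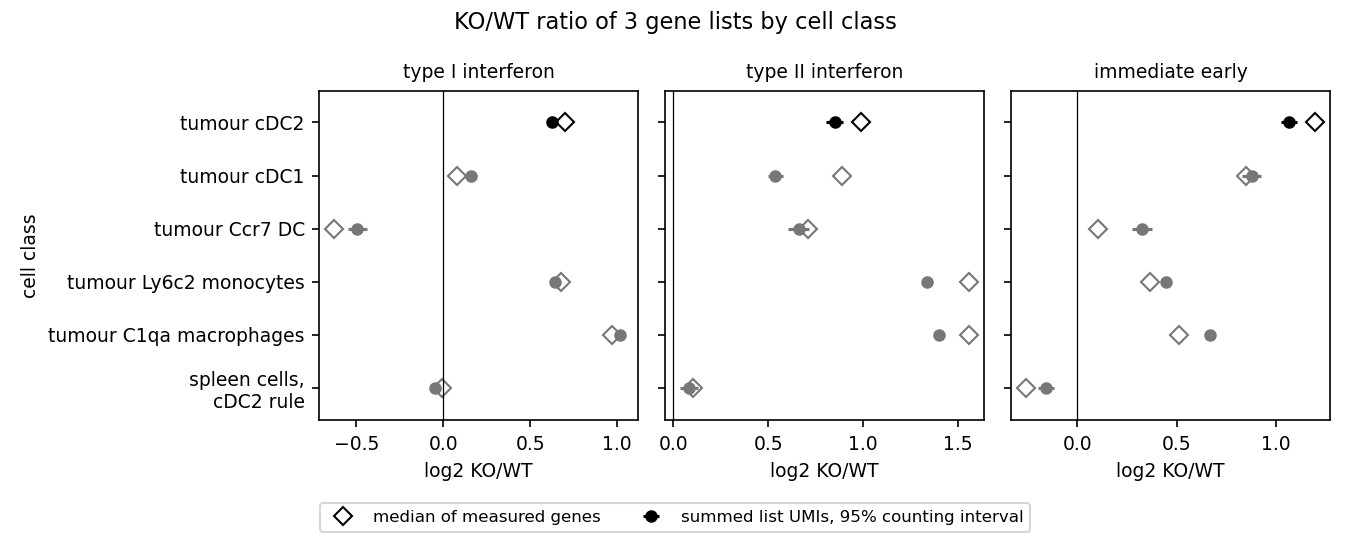
Log2 KO/WT ratio of 3 gene lists in tumour cDC2 (black) and 5 other classes (grey). Circles are the ratio of the summed list UMIs with a 95% counting interval, and diamonds the median over measured genes. In tumour cDC2 the medians are 0.70, 0.99 and 1.2, and the spleen cells under the cDC2 rule lie near or below 0 in the first and the last list. The Ccr7 dendritic cells are the only class well below 0 in the type I list, with a median of -0.63.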

How the data were processed

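Counts of UMIs per gene and barcode were deposited by the authors as whole numbers, not normalized, for 4 libraries made with a Chromium 3' v3.1 kit. Per the file headers the matrices come from cellranger 6.0.0; Cell Ranger 3.1, Seurat 3.1 and 3.1.4, and mm10 (GRCm38) are listed in the processing notes of the submitters. The gene annotation of that step was not given in the sources used here. Together, tumour libraries held 47754169 and 63560706 UMIs in 4798 and 6122 barcodes. The WT cDC2 summed to 1616470 UMIs (5862 to 42276 per cell) and the KO cDC2 to 1500816 (2035 to 42025). No cDC2 barcode was shared between the tumour libraries.

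Counts were summed over the cells of a class in a library and scaled to its total (CPM). Ratios have exact conditional binomial, levels exact Poisson, shares Clopper-Pearson and differences of shares Newcombe intervals at 95%. A difference of 2 log2 ratios has a normal interval from the 4 counts. A count of 0 was read as up to 3 counts. Genes of the rule were left out of counts and lists. Named genes were Ndufa4, the 15 highest and 15 lowest genes by interval bound, up to 4 genes per list and fixed genes of cDC2 function; others are marked, and some items are not reported here. The members and the 33 gene lists and 13 marker lists were chosen with earlier results of these data known. Gene positions are from GENCODE M21, which held 32158 of the 32285 gene IDs.

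Alternatives changed the limits of the rule, the cell filters, doublets (Scrublet in scanpy 1.11.5), depth, weighting, scaling and the gene filter. The scripts were tested on simulated data. Python 3.11.15, numpy 2.4.6, scipy 1.17.1 and pandas 2.3.3 were used.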

Additional observations from a re-analysis of the deposited data

Results flagged for a closer look

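In 4 gene lists the summed KO/WT difference of tumour cDC2 and of the spleen cells under the same rule had opposite signs, and the list medians were at least 1.5-fold apart; the difference was not tested, since each group was 1 library and the spleen was sorted through another gate. The type I interferon list had a median log2 ratio of 0.70 in the tumour and -0.01 in the spleen, with summed ratios of 0.62 [0.60, 0.65] and -0.05 [-0.07, -0.02]. The immediate early list had 1.2 and -0.26, with summed ratios of 1.06 [1.02, 1.10] and -0.16 [-0.20, -0.12]. The monocyte list had 0.51 and -0.11, with summed ratios of 0.53 [0.49, 0.57] and -0.12 [-0.14, -0.09]. The Fc receptor list had 0.44 and -0.17, with summed ratios of 0.29 [0.22, 0.35] and -0.18 [-0.23, -0.12].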

How the results depend on the processing

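No paired analysis was possible because each group was 1 library. The share of cDC2 kept its small size in 12 alternatives. The lower calls numbered 588 with at least 10 summed UMIs and 615 with no filter. With members thinned to 2000 UMIs, 94 genes were called higher and 33 lower, 12 type I and 5 type II genes were called higher, and the Ndufa4 ratio was -3.81, a bound from the floor; fewer UMIs were then tested. With Cd209a required, 24 type I genes were called higher. With at most 1 Ly6c2 UMI and no C1qa UMI, 21 type I and 11 type II genes were.

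Of 96 named genes called, 55 kept their call in every alternative that measured them, and 7 lost it with each gene's top cell left out, an alternative chosen after seeing the data. The sign turned as follows, and the cause was not tested. Thinning to 3000 UMIs before the rule, which kept 47 of 77 WT and 51 of 85 KO members, gave 1.30 for the cell cycle list and 3.98 for Top2a, 5.28 for Pclaf, 1.97 for Stmn1, 1.64 for Hist1h1b, 0.075 for Hist1h1d, 0.095 for Hist1h1e, 2.05 for Hist1h2ae, 2.38 for Hist1h2ap, 0.035 for Fn1, 0.23 for Timp1, -0.14 for Bnip3, -1.14 for Ccl17, -0.44 for Ccl7, -0.74 for Hilpda, -1.34 for Hmox1, -0.0033 for Hsph1 and -0.87 for Vegfa. Under the Ly6c2 and C1qa limit Apoe was -2.25, Ccl7 -1.08, Fcgr3 -0.057, Fcgr4 -0.22, Hmox1 -0.11, Ms4a7 -1.49 and Pclaf 0.049. With Flt3 required Ccl7 was -0.72, Hilpda -2.57, Hmox1 -0.25, Ms4a7 -0.31 and Timp1 0.23, and with at least 2 UMIs of Flt3 and Cd209a Fn1 was 0.17. In thinned members Hmox1 was -0.46, Hsph1 -0.36 and Lipa 0.18, and without the top cell Ccl7 was -0.89. Depth limits genes under 50 summed UMIs, which were not called.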

Other observations

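A pair of genes with no place in the lists of interferon or immediate early genes differed between the genotypes in the spleen as well as in the tumour. Ppfia4 had 3.09 CPM in WT and 48.0 CPM in KO tumour cDC2, and 2.86 and 140 CPM in the spleen cells under the same rule. It had 1.82 and 41.6 CPM in tumour cDC1 and 0.715 and 30.4 CPM in C1qa macrophages, and in monocytes no UMI in WT and 165 in KO. Ctse went the other way in each of the 5 classes named here: the log2 ratio was -2.48 [-3.68, -1.45] in tumour cDC2, -2.12 [-2.77, -1.50] in cDC1, -1.70 [-2.12, -1.28] in monocytes, -2.51 [-3.59, -1.60] in macrophages and -1.78 [-2.32, -1.29] in the spleen cells. Both genes lie on chromosome 1 of GRCm38, Ctse at 131638306 to 131675505 and Ppfia4 at 134296783 to 134332928, whereas Ndufa4 is on chromosome 6. Both were picked after their values were seen.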
